A study of Mus musculus with 2 samples.

Results

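The miR-29 family was represented by 4 hairpins, Mir29a, Mir29b-1, Mir29b-2 and Mir29c, taken by gene name from the 2202 annotated microRNA genes of the count tables. All 4 were found and all 4 passed a minimum of 10 counts in both libraries, as did 352 genes in all. Small RNA had been sequenced from adrenal glands of 25-day-old males of the strain B6CASTF1/J, the F1 offspring of a cross between C57BL/6J and CAST/EiJ. No treatment, mutation or second group was part of the design, so 1 group of 2 biological replicates was described. Both samples carry 1 donor entry although their animal numbers differ, so the SDs below give the spread of these libraries, part or all of which may be technical.

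A microRNA hairpin is cut into a 5p and a 3p strand of about the length of a short read, and the strand loaded into Argonaute finds its messenger RNAs mainly through its seed, bases 2 to 8. The miR-29 family is known for repressing collagens and other proteins of the extracellular matrix, and a fall of miR-29 accompanies fibrosis in heart, lung, liver and kidney. In the adrenal gland the matrix forms the capsule and the basement membranes around cortical cells and sinusoids. Messenger RNAs were not measured in this series, so the data below are on the microRNAs alone.

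The 3p strands show what the family shares. They are given 5′ to 3′ from RefSeq (GRCm38.p6, the assembly named mm10 in the count tables), with the seed in capitals.
miR-29a-3p: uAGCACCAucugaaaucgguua
miR-29b-3p: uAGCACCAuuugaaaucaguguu
miR-29c-3p: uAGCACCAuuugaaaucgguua
The seed AGCACCA is the same in all 3, and no other mature mouse microRNA of the RefSeq table carried it. Counted from 1 at the 5′ end, miR-29a-3p and miR-29c-3p differ by 1 base of 22, C10U. Over the same 22 bases miR-29c-3p and miR-29b-3p differ by 3, G18A, U21G and A22U. The 5p strands each had another seed, CUGAUUU in miR-29a-5p, CUGGUUU in miR-29b-1-5p, UGGUUUC in miR-29b-2-5p and GACCGAU in miR-29c-5p. Only the seed of miR-29b-2-5p occurred in another mature microRNA, miR-6338.

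The hairpins lie in 2 clusters. Mir29a (ENSMUSG00000065610.1, chr6:31062660-31062747) and Mir29b-1 (ENSMUSG00000065604.2, chr6:31063023-31063093) are on the minus strand with 275 bases between them. GENCODE M21 places no other gene over Mir29a, and only 2 bases of Mir29b-1 overlap an exon of the noncoding Gm27019. Mir29b-2 (ENSMUSG00000065412.3, chr1:195037040-195037120) and Mir29c (ENSMUSG00000065548.1, chr1:195037547-195037634) are on the plus strand with 426 bases between them. Both of these lie wholly within an exon of the noncoding A330023F24Rik on the same strand, and within an exon of the complement regulator gene Cd46 on the opposite strand. No read of either library was counted on the opposite strand of any of the 4 hairpins.

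The copies of miR-29b show what could be counted. Both hairpins are printed from RefSeq 5′ to 3′, with the 5p and 3p strands in capitals.
Mir29b-1: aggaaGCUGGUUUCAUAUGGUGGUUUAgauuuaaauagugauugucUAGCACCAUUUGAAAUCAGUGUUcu
Mir29b-2: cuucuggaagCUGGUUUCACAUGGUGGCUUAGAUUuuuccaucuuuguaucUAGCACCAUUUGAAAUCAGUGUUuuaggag
The 3p strand is identical in both, within a shared stretch of 25 bases, while each 5p strand occurs in 1 annotated hairpin. The deposited tables hold reads mapped to several places in a summary line and in no gene row. A read of the full miR-29b-3p therefore adds to neither hairpin, and the counts of Mir29b-1 and Mir29b-2 rest on reads that differ between them, such as those of the 5p strands. The tables do not separate the strands of a hairpin. Mir29a shared no stretch of 20 bases with any annotated hairpin. Of the 69 such stretches in Mir29c, 3 also occur in Mir29b-1, all of them reaching into the loop before the mature strand, and its mature strands occur nowhere else among the annotated hairpins.

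Mir29a made up most of the counted family. Levels are sense counts per 1000000 assigned sense counts (CPM), with 95% exact Clopper-Pearson intervals, which cover the error of counting and no other, since amplified reads carried no molecular identifiers. Counts were not divided by hairpin length, because a read under 30 bases stands for 1 mature strand. Mir29a had 11303 counts in replicate 1, or 3150 CPM (3092 to 3208), and 17445 counts in replicate 2, or 3841 CPM (3785 to 3899). Its mean was 3496 CPM ± 489 (SD, n = 2), rank 41 of the 352 detected hairpins. Replicate 2 was the higher library, and the intervals did not overlap.

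Mir29c came next and was nearly the same in both libraries. It had 2126 counts in replicate 1, or 592.5 CPM (567.6 to 618.2), and 2689 counts in replicate 2, or 592.1 CPM (569.9 to 614.9). Its mean of 592.3 CPM ± 0.254 (SD, n = 2) placed it at rank 99. The spread of the library values was far below the counting error of either, and it depends on the total, as given below.

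The miR-29b hairpins were low. Mir29b-1 had 62 counts in replicate 1, or 17.3 CPM (13.2 to 22.1), and 105 in replicate 2, or 23.1 CPM (18.9 to 28.0). Mir29b-2 had 47 counts in replicate 1, or 13.1 CPM (9.62 to 17.4), and 61 in replicate 2, or 13.4 CPM (10.3 to 17.3). Their means were 20.2 CPM ± 4.13 and 13.3 CPM ± 0.236 (SD, n = 2), at ranks 260 and 280 of 352. Both stood below the median detected hairpin, whose mean was 110.7 CPM, and above the 0.836 CPM and 0.661 CPM that a count of 0 would allow in replicates 1 and 2. The part of the reads mapped to several places in these low counts was not tested. Over all loci, 2734873 reads of replicate 1 (31.6% of its input) and 2781545 reads of replicate 2 (27.0%) mapped to several places.

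**Figure D1:**
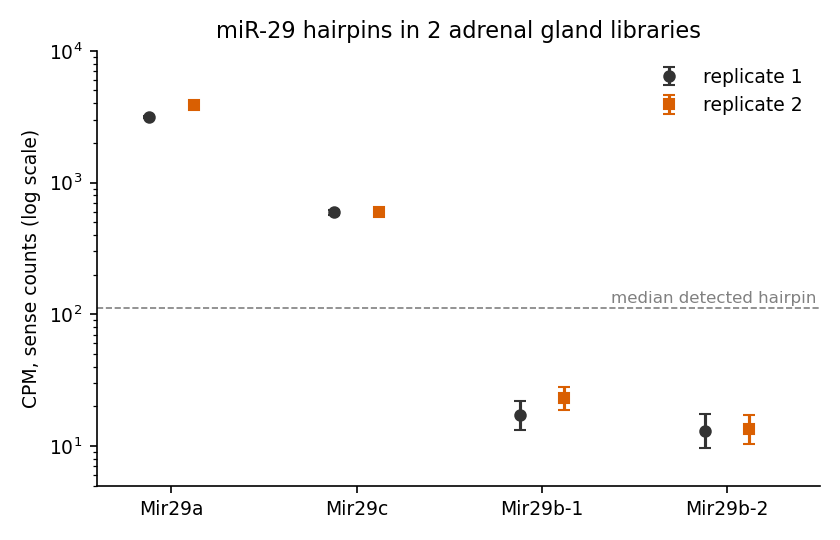
Levels of the 4 miR-29 hairpins in CPM of sense counts (log axis), with circles for replicate 1, squares for replicate 2 and bars for 95% exact intervals of counting error. Mir29a and Mir29c lie above the dashed line, the median detected hairpin at 110.7 CPM, and both miR-29b hairpins lie below it.

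The order Mir29a, Mir29c, Mir29b-1, Mir29b-2 was the same in both libraries, but the last pair could not be separated in replicate 1. Mir29a had 5.32 times the counts of Mir29c in replicate 1 (5.08 to 5.57) and 6.49 times in replicate 2 (6.23 to 6.76). These intervals did not overlap, and since both hairpins are counted in the same library this difference does not depend on the library total. The aligner was not given, so how reads of miR-29a-3p and miR-29c-3p, which differ by 1 base, were kept apart was not checked. Within the clusters, Mir29a had 182 times the counts of Mir29b-1 in replicate 1 (142 to 238) and 166 times in replicate 2 (137 to 203). Mir29c had 45.2 times the counts of Mir29b-2 in replicate 1 (33.9 to 61.8) and 44.1 times in replicate 2 (34.2 to 57.8). Both of these ratios had overlapping intervals in the libraries, and both set a hairpin with unique strands against one whose 3p strand is shared. Mir29b-1 had 1.32 times the counts of Mir29b-2 in replicate 1 (0.888 to 1.97), which includes equality, and 1.72 times in replicate 2 (1.24 to 2.40), which does not.

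By cluster, Mir29a with Mir29b-1 had 5.23 times the counts of Mir29c with Mir29b-2 in replicate 1 (5.00 to 5.48) and 6.38 times in replicate 2 (6.13 to 6.65). Mir29a made up 83.5% of the family's counts in replicate 1 and 85.9% in replicate 2. Mir29c made up 15.7% and 13.2%, and the miR-29b hairpins together 0.805% and 0.818%. The counts of all members together came to 3773 CPM in replicate 1 and 4470 CPM in replicate 2, or 0.412% ± 0.0493 of assigned counts (SD, n = 2). Full reads of miR-29b-3p are neither in this sum nor in the shares of the members. In bulk tissue, fewer cells of a type and less RNA per cell cannot be told apart, so these levels are those of the whole samples. Markers of cells outside the gland were counted in the same samples, as given below.

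The low counts of the miR-29b hairpins were set beside those of other hairpins with a shared strand. Of 657 hairpins with 2 mature strands in the RefSeq table, 573 had neither strand in another annotated hairpin, 61 had 1 and 23 had both. The group with 1 shared strand had 43 of 61 hairpins detected, a median of 15.0 CPM and 1 hairpin (1.64%) above 1000 CPM, Mirlet7f-2. The group with neither strand shared had 218 of 573 detected, a median of 0.748 CPM and 53 hairpins (9.25%) above 1000 CPM, Mir29a among them. By mean CPM, Mir29b-1 and Mir29b-2 were 29th and 33rd of the 61 with 1 shared strand, near the middle of that group with undetected hairpins included. Every hairpin ranked above them was detected, so both held the same ranks among the 43 detected, below the middle of those. In the group with both strands shared, 3 of 23 were detected, the median was 0 CPM and 1 hairpin (4.35%) was above 1000 CPM, Mirlet7c-2. The groups also differ in which microRNAs they hold, so these values are a description.

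**Figure D2:**
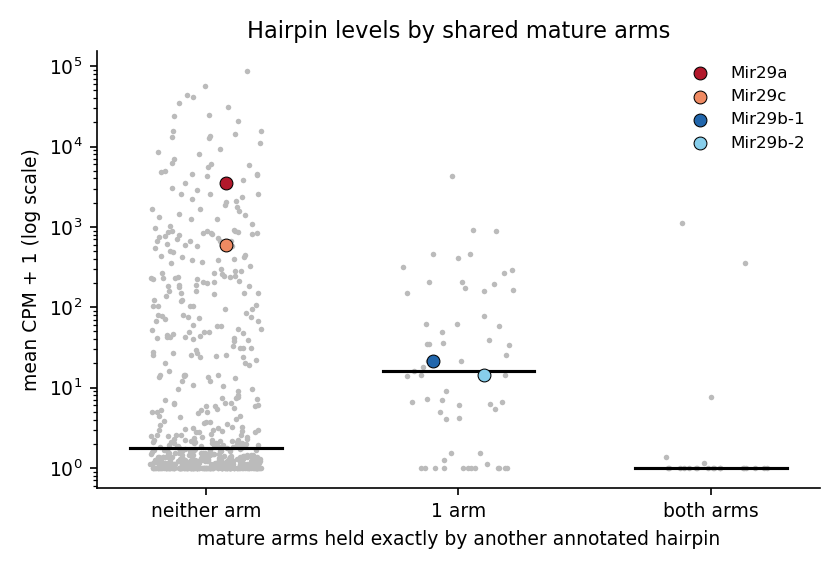
Mean CPM + 1 of the 657 hairpins with 2 mature strands (log axis), grouped by how many of the strands another annotated hairpin holds exactly, with black lines at the medians. Mir29a and Mir29c stand among hairpins with neither strand shared, and Mir29b-1 and Mir29b-2 lie near the median of those with 1 shared strand.

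Between the libraries Mir29a alone of the family was called different. The reads of each detected gene were tested against the library totals (two-sided exact binomial test, Benjamini-Hochberg adjustment over 352 genes, threshold 0.05), which compares these 2 libraries and not conditions. The test called 236 of 352 genes (67.0%), 107 of them (30.4%) higher in replicate 2 and 129 (36.6%) higher in replicate 1. Of the 4 miR-29 hairpins 1 was called, higher in replicate 2, and calls were common among all genes. Mir29a was 1.22-fold higher in replicate 2 (1.19 to 1.25, adjusted p = 1.05e-60 by the exact binomial test), a log2 ratio of 0.29. Of all detected genes, 38.1% had a smaller log2 ratio in size.

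The other members did not pass. Mir29b-1 stood at 1.34 times its replicate 1 level in replicate 2 (0.968 to 1.86, adjusted p = 0.104, exact binomial test). Mir29b-2 stood at 1.03 times (0.690 to 1.53, adjusted p = 0.964) and Mir29c at 0.999 times (0.944 to 1.06, adjusted p = 1), both by the exact binomial test. The counts of the miR-29b hairpins leave room for a difference of over 1.5 times, and those of Mir29c for one of 1.06 times. The median log2 ratio of the 4 was 0.16, against -0.04 over all detected genes, whose median size was 0.43.

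**Figure D3:**
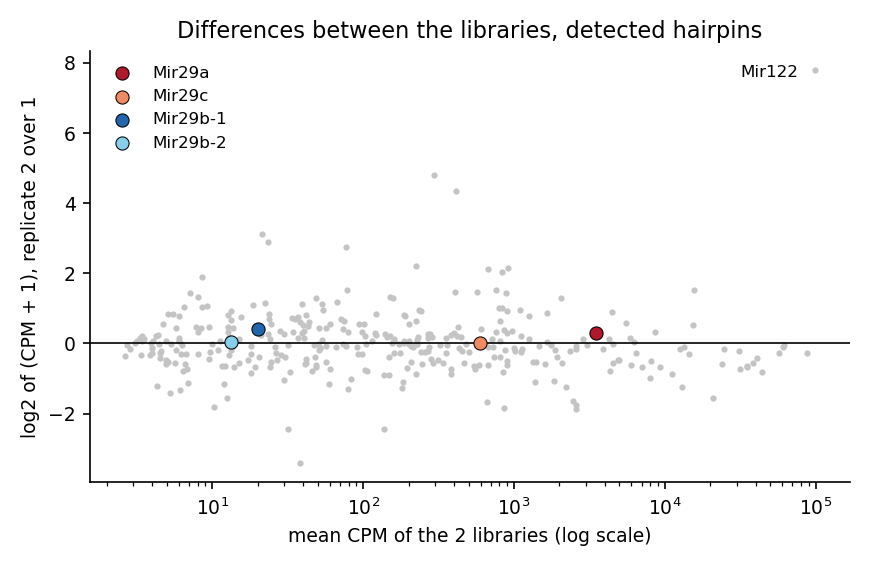
Log2 of the ratio of CPM + 1 in replicate 2 over replicate 1 against mean CPM (log axis) for the 352 detected hairpins, with the miR-29 hairpins in colour. All 4 lie between -0.0009 and 0.40, inside the cloud of the other genes, and Mir122 lies at the top right.

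The total counted in replicate 2 held a large share of a microRNA known from another organ, and its source was not tested. Mir122, the dominant microRNA of hepatocytes, was 0.0892% of the replicate 1 counts and 19.8% of those of replicate 2. Other markers fixed for cells outside the gland were also uneven. Mir192, Mir194-1 and Mir194-2 of liver and kidney summed to 57.4 CPM and 1363 CPM, while the kidney marker Mir204 had 48.5 CPM and 35.7 CPM. The 6 skeletal muscle markers summed to 993 CPM in replicate 1 and 0.661 CPM in replicate 2. Mir206 alone had 987 CPM of the former and all of the latter. The other 5 had at most 3.62 CPM in replicate 1, where 2 of the 6 were at 0, and were all at 0 in replicate 2. Among these 5 are numbered copies of the same microRNA, and a read mapped to several places enters no gene row. The low values of the copies need not be levels of those microRNAs. The endocrine and chromaffin markers, all 4 detected and led by Mir375, summed to 39476 CPM and 33420 CPM. Among these, Mir7-1 and Mir7-2 have 1 shared strand each, as have Mir194-1 and Mir194-2 of liver and kidney. Full reads of such a strand are missing from these sums. Endothelial Mir126a had 62826 CPM and 60799 CPM. The 4 leukocyte markers, led by Mir146, summed to 3610 CPM and 1980 CPM, the red blood cell markers, led by Mir451a, to 1487 CPM and 1248 CPM, and the 5 epithelial markers, led by Mir200c, to 45.7 CPM and 143 CPM. The part of these other cells in the miR-29 values was not tested. Leaving Mir122 out of the total, as below, changes the scale and removes no miR-29 read, so it cannot show that part.

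With Mir122 left out of the totals, all detected genes moved up in replicate 2 by a median of 0.32 on the log2 scale, and so did the members. Mir29a then stood at 3153 CPM and 4787 CPM, 1.52-fold higher in replicate 2 (1.48 to 1.55). Mir29c stood at 593.0 CPM and 737.9 CPM, 1.24-fold higher (1.18 to 1.32, adjusted p = 1.22e-13, exact binomial test). Mir29b-1 was 1.67-fold higher (1.21 to 2.32, adjusted p = 0.00231), while Mir29b-2 at 1.28 times (0.859 to 1.91, adjusted p = 0.266) was not called by the same exact test. Thus 3 of 4 members were called higher in replicate 2, beside 250 of 351 genes (71.2%) called, 175 (49.9%) of them higher in replicate 2 and 75 (21.4%) higher in replicate 1. The ratio of Mir29c was 0.999 also under edgeR's TMM factors and 1.03 (0.971 to 1.09) under DESeq2's size factors, and it was not called under either. On all input reads Mir29c was 1.07-fold higher in replicate 2 (1.01 to 1.13) and passed. Mir29a was called higher in replicate 2 under each of these 5 totals.

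**Figure D4:**
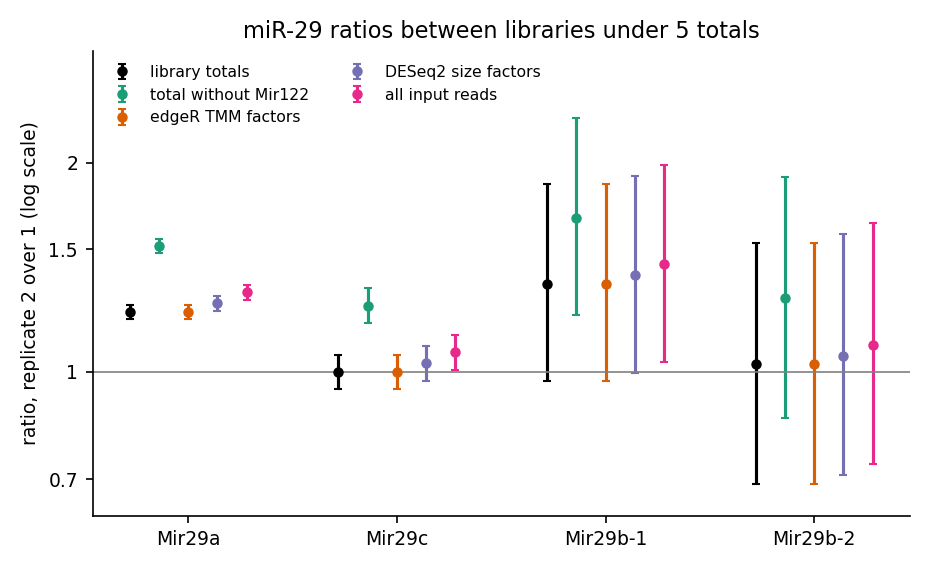
Ratio of each miR-29 hairpin in replicate 2 over replicate 1 (log axis) under 5 library totals, with 95% exact intervals. Every ratio of Mir29a lies above 1, from 1.22 to 1.52, and that of Mir29c runs from 0.999 to 1.24.

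Named from both libraries together, the hairpins nearest to Mir29a in level were Mir17, Mir93, Mir28a, Mirlet7f-2 and Mir27b, with mean levels from 2845 CPM (Mir28a) to 4556 CPM (Mir27b). Likeness was the Euclidean distance of log2(CPM + 1) over the 2 libraries, 0.35 for Mir17 and 0.59 for Mir27b. The hairpins nearest to Mir29c were Mir31, Mir154, Mir376c, Mir221 and Mir185, at distances of 0.25 to 0.40. Those nearest to Mir29b-1 were Mir33, Mir1983, Mir294, Mir1941 and Mir103-2, at 0.14 to 0.38. Mir29b-2 lay closest to Mir138-2, Mir702, Mir325, Mir6240 and Gm23450, at 0.03 to 0.16. With 2 libraries this measure ranks mostly by level.

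Other microRNAs with known roles in matrix or fibrosis gave the family its context. Of 33 such hairpins listed, 25 were detected, and the 5 highest each exceeded Mir29a in both libraries. Mir143 of smooth muscle had 45599 CPM and 30787 CPM in replicates 1 and 2, and Mir26b had 39259 CPM and 23636 CPM. Mir30e had 16006 CPM and 12993 CPM. Mir21a, which rises in fibrotic tissue, had 18167 CPM and 7728 CPM, and Mir30a had 14441 CPM and 7927 CPM. All 5 were called higher in replicate 1 and Mir29a in replicate 2, though Mir30e was not called once Mir122 was out of the total (log2 ratio 0.02, adjusted p = 0.0920 by the exact binomial test).

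Of the 25 detected, 11 were called in favour of replicate 1 and 9 of replicate 2, beside 36.6% and 30.4% of all detected genes. With Mir122 out of the totals the counts were 10 and 12, beside 21.4% and 49.9%. The median log2 ratio of the list was -0.003, against -0.04 over all detected genes. Mir192, which is also one of the liver and kidney markers above, had the highest ratio, with 19.5 CPM and 569 CPM in replicates 1 and 2. Mir26a-1 had the lowest, with 70.2 CPM and 5.73 CPM. Another hairpin holds 1 of the mature strands of Mir26a-1, so full reads of that strand enter no gene row. Of the fibroblast hairpins, Mir214 had 248 CPM and 1088 CPM, while Mir199b had 23.4 CPM and 12.6 CPM and Mir199a-2 8.64 CPM and 4.84 CPM. Mir199a-1 was at 0 in both, but both strands of Mir199a-1 and Mir199a-2 are shared with another hairpin, so full reads of them enter no gene row and these values are not levels of the microRNA. Since Mir199b was not among the 657 hairpins grouped by shared strands, its values need not be levels of the microRNA either. All 4 fibroblast markers summed to 280 CPM in replicate 1 and 1105 CPM in replicate 2, and both smooth muscle markers to 49552 CPM and 31949 CPM. In the fibroblast sums Mir214 made up most of the counts, and it alone of the 4 was higher in replicate 2. The part of these cells in the miR-29 levels was not tested.

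The link from these microRNAs to collagen can be read from annotated transcripts, though no transcript was measured here. The 7-base complement of the shared seed, TGGTGCT on the sense strand, was searched in the longest 3′ UTR of each protein-coding gene, after the stop codon. Transcripts came from the basic set of GENCODE M21. Those with an incomplete end or a 3′ UTR under 7 bases were left out. The match occurred in 17 of 19 listed collagen genes (89.5%), in 5 of 10 other listed matrix genes (50%) and in 2737 of the 20962 protein-coding genes searched (13.1%). The median 3′ UTR was 1110 bases long in the collagens and 955 bases in all genes, and matches per 1000 bases of 3′ UTR were 1.12 and 0.106. The lists were drawn up from what is known of miR-29 targets, so the contrast is a description of known biology and not independent support.

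**Figure D5:**
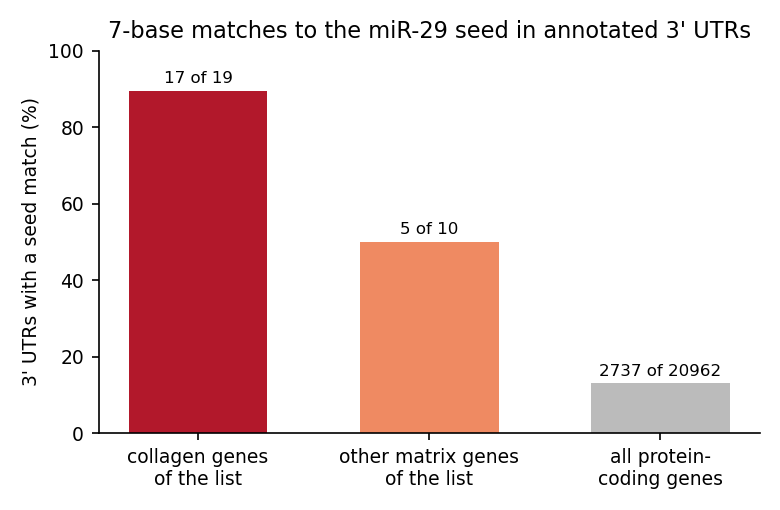
Percentage of 3′ UTRs with at least 1 match to the 7-base complement of the miR-29 seed, with bars for 19 listed collagen genes, 10 other listed matrix genes and all 20962 protein-coding genes searched. The collagen bar stands at 89.5% and that of all genes at 13.1%.

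Col5a1, of minor fibrillar collagen, and Col4a3, of basement membrane collagen, had 4 matches each, and Col4a5 and Col5a3 had 3 each. Eln, the elastin gene, had 3, Fbn1, the fibrillin gene, had 2 and Loxl2, a collagen cross-linking enzyme, had 2. Col1a2, the partner chain of Col1a1, and Col6a1 had no match of these 7 letters, and Sparc, Fn1, Nid1, Nid2 and Lama2 had none. No match says only that these letters are not in the annotated 3′ UTR searched. The first match of 4 collagen genes is printed 5′ to 3′ on the messenger strand (GENCODE M21 transcripts, mm10), with the match in capitals, to be set against the 3p strands above.
Col1a1: ggtgggaaggaatttcTGGTGCTa
Col3a1: cttcaaaatgtctcaaTGGTGCTa
Col4a1: tgccaccgtcacaacaTGGTGCTa
Col5a1: aataactatgaacattTGGTGCTg
They lie at chr11:94952522-94952545 and chr1:45348966-45348989 on the plus strand, at chr8:11199761-11199784 on the minus strand and at chr2:28037988-28038011 on the plus strand. Col1a1 and Col3a1 encode chains of fibrillar collagens, and Col4a1 a chain of the basement membrane. All 3 mature miR-29 strands carry the seed that pairs with these letters, so a match is one to the family and not to a member. Full-length reads of miR-29b-3p are not part of the hairpin counts above.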

How the data were processed

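MicroRNA sequencing of 2 libraries of 1 group was used. The values are raw read counts per microRNA gene that the authors deposited, made on mm10 with GENCODE M21, per the text files beside the tables. Aligner, trimming and the handling of CAST/EiJ alleles were not given in the sources used. The 4 summary lines of each table were left out of totals, and with them the 3 columns of a table sum to 1 number of reads, so a read enters 1 line of a column. Sense counts, the second count column, were used. Totals were 3588361 and 4541373 of 8666085 and 10284575 input reads. The limit for a count of 0 was taken as 3 counts, 0.836 and 0.661 CPM. All 2202 identifiers were found in GENCODE M21.

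Detection needed 10 counts in both libraries. Log2 ratios used a pseudocount of 1 CPM. Binomial tests and intervals came from scipy 1.17.1, with numpy 2.4.6, pandas 2.3.3, matplotlib 3.10.9 and Python 3.11.15. The binomial test was tested on simulated counts drawn with counting error alone, so that check does not cover other variation between libraries. Alternatives were totals of all input reads or without Mir122, edgeR 4.0.16 TMM factors, DESeq2 1.42.0 size factors (R 4.3.3), the either-strand column, other count minimums and pseudocounts, and each library left out. Named genes were the members, the 5 hairpins nearest to each, the 5 highest and the extreme ratios of the matrix list and the highest of each marker group. Mir199a-1, Mir199a-2, Mir199b, and Mirlet7f-2 and Mirlet7c-2 in their groups of shared strands, were chosen after their values were seen, as were the collagen sites printed. The members and lists were chosen with earlier results of these data known.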

Additional observations from a re-analysis of the deposited data

How the results depend on the processing

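No paired analysis was possible because there is 1 group. The order of the 4 hairpins was the same in each library alone, though the last pair could not be separated in replicate 1. Other totals, count minimums and pseudocounts cannot change that order, and the either-strand counts of the members equal their sense counts. Mir29a was called higher in replicate 2 under every alternative that tested it. Pseudocounts do not enter that test, and a single library allows none. Mir29c depended on the total, at a log2 ratio of 0.31 without Mir122 and 0.092 (adjusted p = 0.0449, exact binomial test) on all input reads, called higher in replicate 2 in both. Mir29b-1 passed under the same pair, at log2 ratios of 0.70 and 0.46 (adjusted p = 0.0451 for the latter, exact test). Over its alternatives the adjusted p of Mir29b-1 ran from 0.00231 to 0.152 in that exact test. Genes called higher in replicate 2 and in replicate 1 moved to 175 and 75 without Mir122.

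Levels scale with the total. Without Mir122, Mir29b-2 was 14.9 CPM, Mir29c 665 CPM and the family 4673 CPM. On all input reads, Mir29a was 1500.2 CPM, Mir29c 253 CPM, Mir29b-1 8.68 CPM, Mir29b-2 5.68 CPM and the family 1768 CPM. In the either-strand column, whose total is smaller, Mir29a was 4153 CPM, Mir29c 704 CPM, Mir29b-2 15.8 CPM and the family 4897 CPM. Single libraries gave 3150 to 3841 CPM for Mir29a.

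Direction turned in 75 of 351 detected genes without Mir122 and in 30 of 352 on all input reads. It turned in 16 of 352 under DESeq2's size factors and in 0 under TMM factors. Of 15 other genes named for their difference or as markers, 4 turned without Mir122, Mir126a (0.27), Mir375 (0.11), Mir451a (0.058) and Mir30e (0.015), and Mir126a (0.045) turned on all input reads, all as log2 ratios. Mir29b-2 had under 50 counts in replicate 1 and so no value at that minimum. The miR-29b hairpins rest on 109 and 166 counts together, and the intervals of their ratios are the widest of the 4 members.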
